A study of Arabidopsis thaliana with 18 samples.

Results

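The regions described here were the 625 places in the nuclear genome of Arabidopsis thaliana at which DAP-seq listed a peak for FRUITFULL (FUL) alone and a peak for the FUL-AG-SEP3 mixture, but none for the FUL-SOC1 mixture. They were chosen by the presence and absence of these 3 kinds of peak. All nuclear peaks of the 5 deposited lists were first merged into intervals where they overlapped by 1 bp or more, which gave 8081 intervals, and the 625 intervals that met the rule are called FUL-SOC1-free below. A further 1022 intervals held FUL, FUL-AG-SEP3 and FUL-SOC1 peaks (FUL-SOC1-shared), and 2342 held a FUL-SOC1 peak and neither a FUL nor a FUL-AG-SEP3 peak. The FUL-SOC1-free intervals would be common to every mixture other than FUL-SOC1 only where FUL-AG and FUL-SEP3 peaks were present too, and this held for 159 of the 625. They are therefore named by the rule and not as sites of all other mixtures.

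DAP-seq incubates recombinant protein with naked, adaptor-ligated genomic DNA and sequences the DNA that is pulled down. The 5 protein mixtures were FUL alone and FUL combined with SOC1, with AG, with SEP3, or with AG and SEP3 together, and input DNA served as the background. Each of the 6 conditions had 3 replicates (18 samples), each set up with 400 ng of library made from Col-0 seedling leaves, 2 weeks of age. All proteins came from an in vitro wheat germ system, and FUL carried the only tag (3xFLAG) in every mixture, so that a peak requires DNA held together with FUL but does not tell which complex held it. The DNA was free of chromatin, and the 3 replicates were combined before peaks were called, so that each peak has 1 height per mixture and no replicate error.

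FUL, AG, SEP3 and SOC1 are MADS-domain transcription factors, which bind DNA as dimers or tetramers at CArG-boxes, written CC[A/T]6GG. FUL acts with SOC1 in the inflorescence meristem, where the switch to flowering takes place, and with AG and SEP proteins in the carpel and fruit, where AG sets carpel identity and SEP3 is known for joining dimers into tetramers. The paper cites work proposing that the A/T tract at the centre of the box sets the width of the minor groove. It also cites earlier work in which A/T bases next to the box contributed to binding.

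The sequences at the 5 FUL-SOC1-free intervals with the highest peaks in both selecting lists are printed below as 200-bp windows centred on the FUL-AG-SEP3 summit, because they show what the strongest sites look like. Intervals were ranked by the lower of their percentiles by fold enrichment within the FUL and the FUL-AG-SEP3 list. Each window is the + strand of TAIR10.1, 5′ to 3′, and the capitals mark the best CArG-box, defined as the 10-bp stretch with the fewest mismatches to the consensus and, among ties, the one nearest to the summit.
COAD intron, chr2:7940276-7940475: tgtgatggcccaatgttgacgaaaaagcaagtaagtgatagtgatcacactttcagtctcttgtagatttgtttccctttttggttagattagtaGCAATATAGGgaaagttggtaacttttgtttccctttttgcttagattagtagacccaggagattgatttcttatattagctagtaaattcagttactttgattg
upstream of AT4G04845, chr4:2185220-2185419: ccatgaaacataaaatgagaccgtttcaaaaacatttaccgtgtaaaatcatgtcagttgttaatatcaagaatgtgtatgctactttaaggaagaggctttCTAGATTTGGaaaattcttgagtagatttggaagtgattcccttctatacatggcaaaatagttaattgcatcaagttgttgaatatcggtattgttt
AT5G32254, chr5:11912414-11912613: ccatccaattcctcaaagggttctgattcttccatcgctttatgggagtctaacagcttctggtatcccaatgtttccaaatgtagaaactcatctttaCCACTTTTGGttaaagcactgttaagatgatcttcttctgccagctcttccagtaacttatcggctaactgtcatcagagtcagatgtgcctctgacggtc
repeat copy on chromosome 3, chr3:16340097-16340296: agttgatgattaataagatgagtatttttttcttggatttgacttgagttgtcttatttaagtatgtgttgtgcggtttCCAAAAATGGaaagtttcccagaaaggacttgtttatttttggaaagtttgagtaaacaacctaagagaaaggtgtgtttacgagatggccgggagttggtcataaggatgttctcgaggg
repeat copy on chromosome 1, chr1:16381827-16382026: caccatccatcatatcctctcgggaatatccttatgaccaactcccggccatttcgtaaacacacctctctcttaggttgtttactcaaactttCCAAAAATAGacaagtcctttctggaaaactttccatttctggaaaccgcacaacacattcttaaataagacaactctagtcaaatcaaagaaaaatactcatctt

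The tallest FUL peak among the FUL-SOC1-free intervals lay in an intron of COAD, which encodes an enzyme of coenzyme A synthesis (AT2G18250, chr2:7940135-7940640). It reached 14.5-fold over input with FUL and 6.21-fold with FUL-AG-SEP3, and the interval also held a FUL-AG peak of 6.15-fold and a FUL-SEP3 peak of 5.57-fold. The nearest FUL-SOC1 peak was 27236 bp away. Its best box had 1 mismatch to the consensus, and the box in the window upstream of AT4G04845 had 2. The box at AT5G32254 had 1 mismatch as well. The windows on chromosomes 3 and 1 were copies of a repeat described further below, and the first of them carried an exact box.

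A FUL-AG peak was found in 302 of the 625 FUL-SOC1-free intervals (48.3%), whereas 34.7% of all 8081 intervals held one. A FUL-SEP3 peak was found in 293 (46.9%), against 17% of all intervals. These 2 lists took no part in the choice of the intervals. Both peaks were present in 159 FUL-SOC1-free intervals, a FUL-AG peak without a FUL-SEP3 peak in 143, a FUL-SEP3 peak without a FUL-AG peak in 134, and neither in 189. The 4 combinations were thus of similar size.

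In the FUL-SOC1-shared intervals the combinations were far less even. FUL-AG peaks were less frequent in FUL-SOC1-free intervals (48.3%) than in FUL-SOC1-shared ones (78.4%), a difference of -30.1 percentage points (95% Newcombe interval -34.6 to -25.3). FUL-SEP3 peaks were also less frequent, at 46.9% against 60.7% (-13.8 points, -18.7 to -8.83). The combination of a FUL-SEP3 peak without a FUL-AG peak ran the other way. It made up 21.4% of the FUL-SOC1-free and 10.8% of the FUL-SOC1-shared intervals, a difference of 10.7 points (7.01 to 14.5). Neither peak was present in 30.2% of the FUL-SOC1-free and 10.9% of the FUL-SOC1-shared intervals. These confidence limits cover counting error over genomic places only, since the pooled lists leave no error between replicates.

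**Figure D1:**
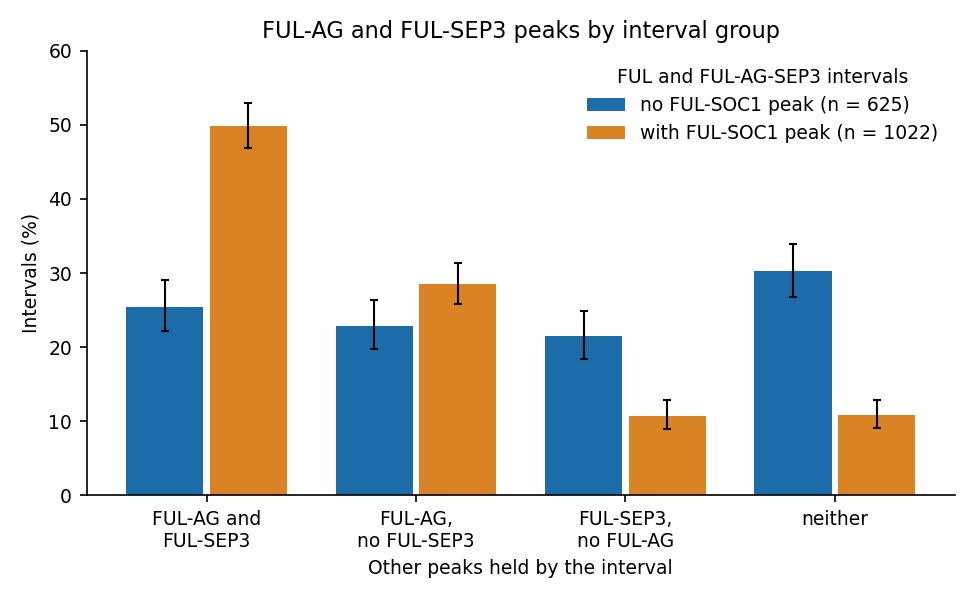
Share of intervals (%) that held FUL-AG and FUL-SEP3 peaks, FUL-AG only, FUL-SEP3 only or neither, in the 625 intervals with FUL and FUL-AG-SEP3 but no FUL-SOC1 peak (blue) and the 1022 with a FUL-SOC1 peak as well (orange), with 95% Wilson intervals as error bars. The FUL-SEP3-only and neither classes were larger in blue (21.4% and 30.2%) than in orange (10.8% and 10.9%).

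Peak height moved with this comparison. The FUL-AG-SEP3 peak had a median of 3.24-fold over input in FUL-SOC1-free and 3.68-fold in FUL-SOC1-shared intervals, which placed the median peak at percentile 56.8 and 76.7 of its list. FUL peaks had the same median in both groups, 4.32-fold. These heights belong to lists that chose the intervals and are given as a description. When only intervals with FUL-AG-SEP3 peaks above the pooled median of 3.50-fold were kept, FUL-AG peaks were present in 74.5% of 216 FUL-SOC1-free intervals and the difference shrank to -15.4 points (-22.0 to -9.40), while at or below the median it was -28.4 points (-34.6 to -21.8). The difference in FUL-SEP3 share was -5.57 points (-12.8 to 1.18) above and -5.66 points (-12.1 to 0.863) at or below that median, so that neither interval excluded 0. The excess of FUL-SEP3 peaks without FUL-AG was present on both sides, at 12.8 points (7.53 to 18.8) above and 6.21 points (0.880 to 11.5) at or below it.

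Within the FUL-SOC1-free intervals, the combination of peaks and the height of the FUL peak went together. Intervals with both FUL-AG and FUL-SEP3 peaks had a median FUL fold of 5.70, those with FUL-SEP3 only 5.07, those with neither 3.80 and those with FUL-AG only 3.69. The FUL-AG-SEP3 medians were 3.76, 3.22, 3.02 and 3.27 in the same order. The FUL peak of intervals with FUL-SEP3 but no FUL-AG peak was thus closer to that of intervals with both, although their FUL-AG-SEP3 peak was not. The summits of the mixtures lay close together. The FUL summit was a median of 16 bp from the FUL-AG-SEP3 summit, and 535 of 625 (85.6%) lay within 50 bp. The corresponding medians were 14 bp for the 302 FUL-AG and 14 bp for the 293 FUL-SEP3 summits.

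**Figure D2:**
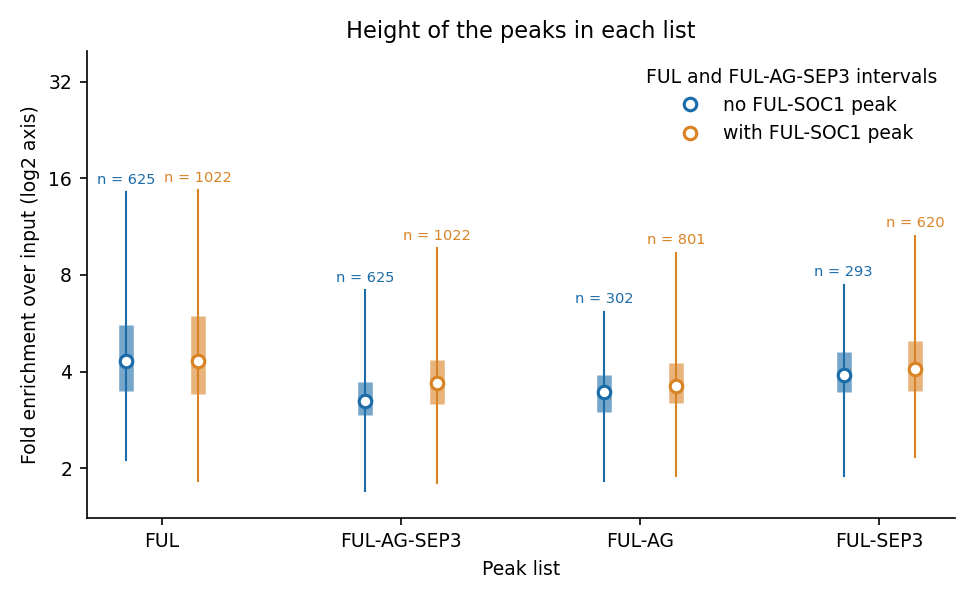
Fold enrichment over input (log2 axis) of the highest peak of each list per interval, in intervals without (blue) and with (orange) a FUL-SOC1 peak; circles are medians, thick bars run between the quartiles and thin lines from the lowest to the highest peak. The FUL medians were equal (4.32), and the FUL-AG-SEP3 median was 3.24 in blue and 3.68 in orange.

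The absence of a FUL-SOC1 peak means that none passed the threshold of the list, not that nothing was bound. The nearest FUL-SOC1 peak was at a median distance of 8512 bp from the FUL-SOC1-free intervals (quartiles 3168 and 17081 bp). It came as near as 81 bp, and 21 of the 625 intervals had one within 500 bp and 61 within 1000 bp. On the other side of the rule, the FUL-SOC1 and FUL-AG-SEP3 peaks of the FUL-SOC1-shared intervals always overlapped, by at least 44 bp and by a median of 256 bp, and the weakest FUL-SOC1 peak among them had a −log10 q of 1.70.

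An exact CArG-box was present in the 200-bp window of 133 FUL-SOC1-free intervals (21.3%, 95% Wilson interval 18.2 to 24.7). The share was 22.7% in FUL-SOC1-shared intervals, a difference of -1.42 points whose interval of -5.46 to 2.76 included 0. It was 10.2% in intervals with a FUL-SOC1 but no FUL or FUL-AG-SEP3 peak, which is 11.1 points below the FUL-SOC1-free intervals (7.78 to 14.6). Windows placed 1000 bp to the right of the FUL-SOC1-free summits held an exact box in 6 of 625 cases (0.96%). A box with at most 1 mismatch was present in 75.04% of FUL-SOC1-free, 78.3% of FUL-SOC1-shared and 64.9% of the FUL-SOC1 intervals without FUL and FUL-AG-SEP3, against 20.6% of the displaced windows. All intervals together had 66.7%. The share of exact boxes did not separate FUL-SOC1-free from FUL-SOC1-shared intervals in windows of 100 or 400 bp either.

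The box sat at the peak centre. The middle of the best box was a median of 9.5 bp from the summit in FUL-SOC1-free intervals, 12.5 bp in FUL-SOC1-shared ones and 26.5 bp in the displaced windows. A second box of at most 1 mismatch was less frequent in FUL-SOC1-free windows (26.6% held 2 or more) than in FUL-SOC1-shared windows (33.0%), a difference of -6.41 points (-10.8 to -1.85). Overlapping boxes were counted apart here, with 21 overlapping pairs in FUL-SOC1-free and 59 in FUL-SOC1-shared windows. A second box is therefore not always a separate site, and no other setting was tried for this share. Where the best box had 1 mismatch, it fell on the inner C or G (positions 2 and 9) in 56.0% of 336 FUL-SOC1-free and 56.3% of 568 FUL-SOC1-shared boxes, but in 38.8% of the 1280 boxes of FUL-SOC1 intervals without FUL and FUL-AG-SEP3. There the outer C or G (positions 1 and 10) was the most frequent place, at 46.3%, compared with 25.6% in FUL-SOC1-free boxes.

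The outer C was examined separately. C stood at position 1 of the best box in 89.1% of FUL-SOC1-free and 85.9% of FUL-SOC1-shared intervals (3.21 points, -0.137 to 6.37), and in 73.9% of FUL-SOC1 intervals without FUL and FUL-AG-SEP3 (15.2 points, 12.01 to 18.1). Over all intervals the share was 79.6%. Since the best box is picked with position 1 in the consensus, the box was also chosen on positions 2 to 10 alone. For this choice both strands were scored, and the box was read on the strand with fewer mismatches. An outer mismatch at either end is thereby turned to position 1. The shares that follow are therefore not the frequency of C at a fixed end of the box. C then stood at position 1 in 38.6% of FUL-SOC1-free, 38.5% of FUL-SOC1-shared, 20.1% of the FUL-SOC1 intervals without FUL and FUL-AG-SEP3 and 5.60% of displaced windows. The difference between FUL-SOC1-free and FUL-SOC1-shared boxes was 0.11 points (-4.70 to 4.97), and that from the FUL-SOC1 intervals without FUL and FUL-AG-SEP3 was 18.4 points (14.4 to 22.6).

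Among exact boxes, CCAAAAATGG was the most frequent, in 36 of 133 FUL-SOC1-free against 39 of 232 FUL-SOC1-shared intervals (19 and 31 when intervals with near-identical copies were left out). CCAAAAAAGG followed with 23 and 29 intervals. CCAAATATGG was found in 5 FUL-SOC1-free and 33 FUL-SOC1-shared intervals. These 3 boxes were singled out after their counts were seen, and both strands were counted together.

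The bases flanking the box were richer in A and T than in the FUL-SOC1-shared intervals. All 3 bases on either side were A or T in 33.6% of the FUL-SOC1-free and 24.9% of the FUL-SOC1-shared best boxes, a difference of 8.75 points (4.23 to 13.3). The share was 9.09% in FUL-SOC1 intervals without FUL and FUL-AG-SEP3, 17.2% over all intervals and 11.5% in displaced windows. Counting the box as positions 1 to 10, the difference between FUL-SOC1-free and FUL-SOC1-shared boxes was 6.46 points at position -1 (78.1% against 71.6%), 5.28 points at position -2 (86.4% against 81.1%) and 4.47 points at position 12 (87.8% against 83.4%). Of 8 other settings tried for each position, the interval of the difference included 0 in 2 at position -1, in 2 at position -2 and in 5 at position 12 (3.55 points, -0.222 to 7.11, without near-identical copies). At positions -3, 11 and 13 the differences of 0.734, 1.17 and 1.499 points had intervals that included 0. The A/T content of the whole window was close in the 2 groups, with medians of 66% in FUL-SOC1-free and 65.5% in FUL-SOC1-shared windows.

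The left and right flanks mirrored each other when averaged over all boxes. Boxes were read on the + strand, and the box pattern is the same on both strands. The averages would therefore mirror each other even if individual sites had an orientation. Whether individual sites have an orientation was not tested. T was the most frequent base on the left of FUL-SOC1-free boxes, with 59.5% at position -3 and 64.3% at position -2, and A on the right, with 68% at position 12 and 62.1% at position 13. In FUL-SOC1-shared boxes the values were 54.8%, 59.1%, 61.7% and 57.2%. The pattern of TT at positions -3 and -2 with AA at positions 12 and 13 was picked after these values were seen and is given without a comparison of its own. It was complete in 22.1% of FUL-SOC1-free, 13.4% of FUL-SOC1-shared and 2.26% of the FUL-SOC1 boxes without FUL and FUL-AG-SEP3, and in 8.34% over all intervals. A second, lower rise in A/T content lay farther out, with 76.2% at position -6 and 73.1% at position 17 of FUL-SOC1-free boxes, beyond a minimum of 62.1% at position -4 and 65.4% at position 14. FUL-SOC1-shared boxes had the same course, with 74.0%, 70.2%, 64.4% and 66.1% at these positions.

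**Figure D3:**
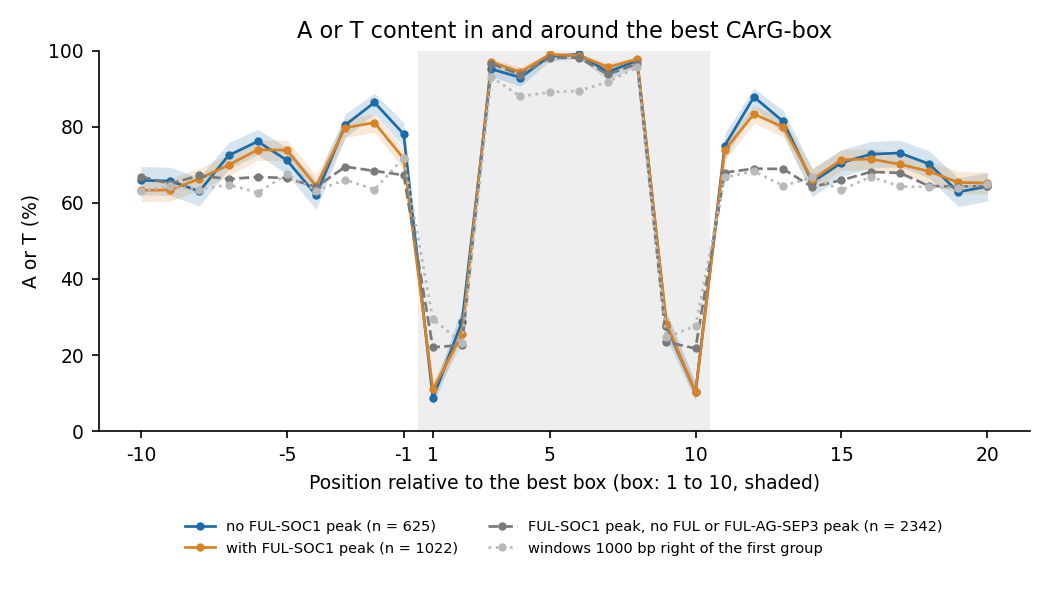
Share of A or T (%) at each position from 10 bases before to 10 bases after the best 10-bp box (shaded), in intervals without (blue) and with (orange) a FUL-SOC1 peak, in FUL-SOC1 intervals without FUL and FUL-AG-SEP3 peaks (grey, dashed) and in windows 1000 bp to the right of the first group (dotted); bands are 95% Wilson intervals. Blue lies above orange at positions -2 (86.4% and 81.1%), -1 (78.1% and 71.6%) and 12 (87.8% and 83.4%).

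The A/T flanks were also compared within each combination of the other peaks. Among intervals with both FUL-AG and FUL-SEP3 peaks, all 6 flanking bases were A or T in 71 of 159 FUL-SOC1-free (44.7%) and 127 of 510 FUL-SOC1-shared boxes (24.9%), a difference of 19.8 points (11.3 to 28.3). It was 12.1 points (2.82 to 21.8) without intervals that have near-identical copies. The differences were 6.82 points (-5.30 to 18.5) with FUL-SEP3 only, 3.49 points (-4.40 to 12.1) with FUL-AG only and -2.59 points (-13.4 to 7.76) with neither. These 4 differences were not tested against each other. Within the FUL-SOC1-free intervals, the 293 with a FUL-SEP3 peak had such flanks in 42.3% and the 332 without one in 25.9% of cases (16.4 points, 8.99 to 23.6; 11.3 points, 3.36 to 19.1, without copies). By FUL-AG peak the shares were 34.4% of the 302 with and 32.8% of the 323 without one (1.62 points, -5.76 to 8.999). Exact boxes were present in 25.9% with and 17.2% without a FUL-SEP3 peak (8.77 points, 2.33 to 15.2). Since FUL peaks were also higher where FUL-SEP3 peaks were present, the part of peak height in these differences was not tested. This breakdown was added after the lists had been examined.

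**Figure D4:**
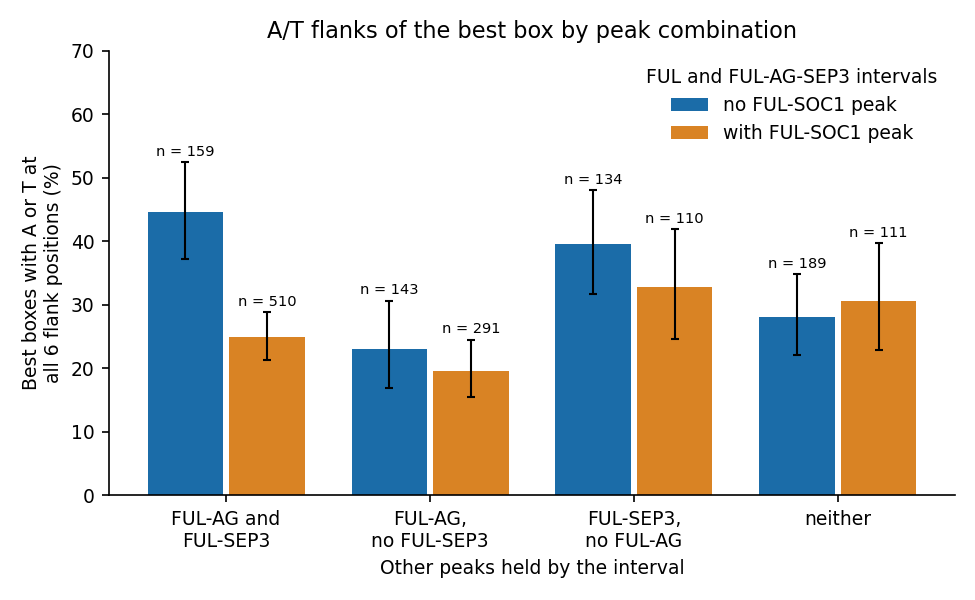
Share of best boxes (%) with A or T at all 3 bases on both sides, by the other peaks in the interval, without (blue) and with (orange) a FUL-SOC1 peak; error bars are 95% Wilson intervals and n is the number of intervals. In the class with FUL-AG and FUL-SEP3 peaks blue reached 44.7% and orange 24.9%.

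Repeated sequence made up part of the FUL-SOC1-free intervals. A near-identical copy elsewhere in the nuclear genome, of at least 90% identity over at least 50% of the length, was found for 81 of 625 (12.96%), against 12.4% of FUL-SOC1-shared and 15.1% of all intervals. Intervals with 10 or more copies made up 7.36% of FUL-SOC1-free and 4.31% of FUL-SOC1-shared intervals (3.05 points, 0.761 to 5.61). These limits count copies of the same repeat as separate places. The largest repeat family, described below, alone held 23 FUL-SOC1-free and 16 FUL-SOC1-shared intervals. In FUL-SOC1 intervals without FUL and FUL-AG-SEP3 the share was 5.76%, and the difference from it included 0 (1.60 points, -0.470 to 4.07). Among the 159 FUL-SOC1-free intervals with both FUL-AG and FUL-SEP3 peaks, 40 had a copy (25.2%), compared with 11 of 134 with FUL-SEP3 only, 14 of 143 with FUL-AG only and 16 of 189 with neither. Copies that match each other formed 9 families with 53 of the intervals.

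The largest family had 23 FUL-SOC1-free members on 5 chromosomes, none with its summit in the coding exons, introns or UTRs of a gene. The boxes of 3 members among the highest-ranked intervals are shown with 10 flanking bases on each side, since they carry the same exact box on either strand, written CCAAAAATGG or CCATTTTTGG.
chr3:16340021-16340373: tgtgcggtttCCAAAAATGGaaagtttccc
chr1:15805420-15805820: tgtgcggtttCCAAAAATGGaaaatttccc
chr2:5227612-5228161: gggaaactttCCATTTTTGGaaaccgcaca

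This box was the best box of 16 of the 23 members. Their FUL peaks had a median of 7.87-fold (4.14 to 10.9), and 22 held a FUL-AG peak and 23 a FUL-SEP3 peak. The family had 43 places in the genome. Of these, 23 were FUL-SOC1-free, 16 lay in FUL-SOC1-shared intervals, 1 in another interval with a FUL-SOC1 peak, 1 in another without one and 2 in none. In the 16 FUL-SOC1-shared copies the FUL median was 9.46-fold (3.97 to 11.6) and the FUL-SOC1 peaks were between 2.60- and 3.73-fold, and 7 of the 16 had the CCAAAAATGG box. Copies of one sequence therefore stood on both sides of the rule, with overlapping FUL heights. How reads that match several copies were placed is not given in the sources used here.

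A second family of 8 members had CTATAAATAG as the best box of each, FUL peaks of 3.81- to 6.40-fold and 114 places in the genome. Of these, 7 lay in FUL-SOC1-shared intervals, 2 in other intervals with a FUL-SOC1 peak, 11 in others without one and 86 in no interval. Another family, of 6 members, held the highest FUL-AG-SEP3 peak of the FUL-SOC1-free intervals (4.44- to 7.16-fold within the family) over FUL peaks of 3.13- to 9.18-fold, and all 6 held FUL-AG and FUL-SEP3 peaks. Its 9 places held no FUL-SOC1 peak. The sixth and ninth families were pairs in gene bodies, and the ninth was the duplicated gene pair SPL13A and SPL13B.

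Of the 625 summits, 151 (24.2%) lay within 1 kb upstream of a gene start, 128 (20.5%) in introns, 123 (19.7%) farther from genes, 77 (12.3%) in coding exons, 50 (8%) in 5′ UTRs, 49 (7.84%) in non-coding genes or pseudogenes and 47 (7.52%) in 3′ UTRs. Summits in introns were less frequent than in FUL-SOC1-shared intervals (25.1%), by -4.67 points (-8.72 to -0.457), but with windows set on the FUL summit the interval of this difference included 0 (-4.22 points, -8.31 to 0.0174). Over all intervals 22.1% of summits lay in introns and 20.9% in upstream regions. The 6 other classes had differences whose intervals included 0, the largest being 3.81 points (-0.294 to 8.03) for upstream regions. FUL-SOC1-free summits were nearer to gene starts. They were a median of 817 bp from the nearest start, against 995 bp in FUL-SOC1-shared intervals, and 57.0% lay within 1000 bp of one, against 50.3% (6.67 points, 1.70 to 11.6). The share was 50.3% over all intervals. The nearest starts belonged to 618 genes, and 483 of the 625 intervals were nearest to a protein-coding gene, 86 to a pseudogene, 36 to a long non-coding RNA and 3 to a miRNA gene. The intervals were spread over the 5 chromosomes at 4.83 to 5.88 per Mb.

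**Figure D5:**
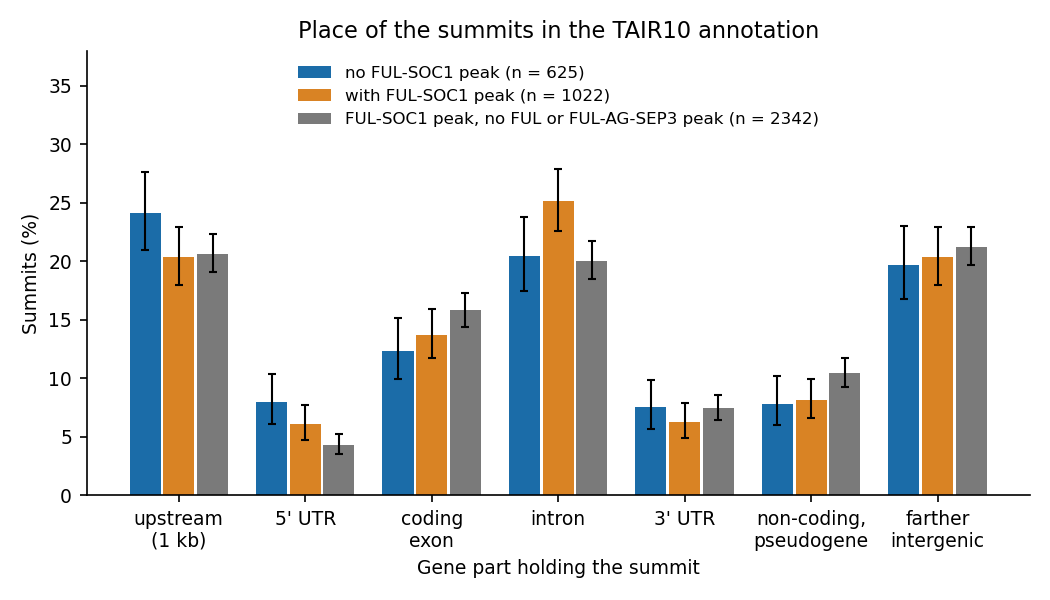
Share of summits (%) in each part of the TAIR10.1 annotation, for intervals without (blue) and with (orange) a FUL-SOC1 peak and for FUL-SOC1 intervals without FUL and FUL-AG-SEP3 peaks (grey), with 95% Wilson intervals. Introns held 20.5% of the blue and 25.1% of the orange summits, and upstream regions 24.2% and 20.4%, where all intervals together had 22.1% and 20.9%. With the FUL summit the intron difference had an interval that included 0.

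Counting the gene with the nearest start and any gene that held the summit, the FUL-SOC1-free intervals were assigned to 704 of 37899 annotated nuclear genes (1.86%). A FUL-SOC1 peak at another place was assigned to 113 of the 704 (16.1%). Of 43 genes of flowering and floral identity 3 were among them, of 33 carpel and fruit genes 4, of 57 receptor-like protein genes 4, of 126 MADS-box genes 5, of 151 auxin and gibberellin genes 5 and of 374 genes annotated as transcription factors 12. The same lists had 6, 4, 4, 8, 5 and 18 genes at FUL-SOC1-shared intervals, which were assigned to 1180 genes (3.11%). These are counts of a few genes each, and nothing is drawn from them about a list.

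The 3 flowering genes were RAP2.7, SVP and SEP4. RAP2.7 (AT2G28550, also called TOE1) encodes an AP2-like repressor of flowering. Its interval in a coding exon (chr2:12227585-12227932) had peaks of 7.35-fold with FUL, 4.19-fold with FUL-AG-SEP3 and 4.57-fold with FUL-AG, and no FUL-SEP3 peak. FUL-SOC1 peaks of 2.47- and 2.16-fold were assigned to the same gene, the nearer one with its summit 1759 bp away. SVP (AT2G22540) encodes a MADS-domain repressor of flowering. Its interval in the 5′ UTR (chr2:9580009-9580339) had peaks in all 4 mixtures other than FUL-SOC1, with 5.97-fold for FUL, 3.66-fold for FUL-AG-SEP3, 3.35-fold for FUL-AG and 3.49-fold for FUL-SEP3, and the nearest FUL-SOC1 peak was 27035 bp away. SEP4 (AT2G03710), a gene for floral organ and meristem identity, had an interval 386 bp upstream of its start (chr2:1128700-1128935) with 4.05-fold for FUL and 3.39-fold for FUL-AG-SEP3 and no FUL-AG or FUL-SEP3 peak.

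The best boxes of these 3 intervals each had 1 mismatch. They are printed in the direction of the + strand, capitals marking the box.
RAP2.7: aaaaaacttaCCAAATATGTgactcccatc
SVP: ttaaagtctcCCTTTTTAGCaaaaattctc
SEP4: tgaatatgctCTATTTAAGGcatctttata

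The 4 carpel and fruit genes were GRP2B, HEC2, SPT and SUP. HEC2 and SPT encode bHLH factors needed for the transmitting tract, style and stigma, SUP a zinc finger protein that sets the boundary between stamens and carpels, and GRP2B (AT2G21060, also called CSP4) a cold shock domain protein. The summits at HEC2, SPT and SUP were farther than 1 kb from the gene start. The HEC2 interval (AT3G50330, chr3:18661606-18662124), with its summit 3377 bp upstream, held the only exact box of the 4 and was higher with FUL-SEP3 (5.57-fold) than with FUL (3.86-fold), FUL-AG-SEP3 (3.50-fold) or FUL-AG (2.87-fold). The SPT interval (AT4G36930, chr4:17408806-17409063), 5143 bp upstream, had 3.62-fold for FUL, 2.77-fold for FUL-AG-SEP3 and 2.73-fold for FUL-SEP3. A FUL-SOC1 peak lay only 236 bp from it, so that it is among the borderline cases of the rule. FUL-SOC1 peaks of 2.63- and 3.24-fold in other intervals were assigned to SPT. The SUP interval (AT3G23130, chr3:8244748-8245123), 2699 bp downstream of the start, had 4.55-fold for FUL, 2.25-fold for FUL-AG-SEP3, 2.36-fold for FUL-AG and 3.41-fold for FUL-SEP3. Its FUL-AG-SEP3 and FUL-AG peaks were weak, at percentiles 3.38 and 5.08 of their lists. The GRP2B interval (chr2:9037831-9038110), 187 bp upstream of the start, had 4.51-fold for both FUL and FUL-AG-SEP3 and 3.56-fold for FUL-AG.

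The best boxes of the carpel and fruit genes follow, to show the exact box near HEC2 beside those with 1 mismatch.
HEC2: aacatttttaCCAAATAAGGaagaaaagaa
SPT: aacacaatttCCATTTATAGtaaactctca
SUP: gatgagctttCCTTTTATAGtaagttatgt
GRP2B: taatataattACAAAAATGGgccaggctaa

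Besides SVP and SEP4, the MADS-box genes AGL79, AGL16 and AGL91 had FUL-SOC1-free intervals. AGL79 (AT3G30260) belongs to the AP1/FUL lineage, as FUL does, but to a different clade within it, and AGL16 (AT3G57230) is a repressor of flowering. The AGL79 interval lay in an intron (chr3:11910338-11910653) with 6.34-fold for FUL, 4.61-fold for FUL-AG-SEP3 and 3.79-fold for FUL-SEP3. Its nearest FUL-SOC1 peak was 93 bp away, and 3 FUL-SOC1 intervals were assigned to the gene. The AGL16 interval in the 5′ UTR (chr3:21178086-21178421) had 5.24-fold for FUL, 4.45-fold for FUL-AG-SEP3 and 4.25-fold for FUL-AG, with a FUL-SOC1 peak of 4.31-fold 523 bp away. The AGL91 interval 165 bp upstream of the start (AT3G66656, chr3:2091824-2092112) had 4.32-fold for FUL, 3.98-fold for FUL-AG-SEP3 and 5.17-fold for FUL-SEP3. A FUL-SOC1 peak at another place was assigned to each of these 3 genes and to neither SVP nor SEP4, beside 16.1% of all 704 genes. AGL79 and AGL91 had a best box with 2 mismatches and AGL16 one with 1 mismatch.
AGL79: aagaaatctaCTATAAATAGaagagtcagc
AGL16: ttgaaacataCTAAATTTGGtagaaacttt
AGL91: gcatatatatACATATTTAGtaactccact

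The receptor-like protein genes encode membrane proteins with extracellular leucine-rich repeats and no kinase domain, and RLP23 is known as a receptor for a peptide of microbial origin. The intervals of RLP27, RLP28 and RLP23 lay in coding exons of genes on chromosome 2, and none of the 4 genes had a FUL-SOC1 peak assigned, as for most of the 704 genes. RLP27 (AT2G33060, chr2:14025862-14026258) had 4.41-fold for FUL, 5.27-fold for FUL-AG-SEP3 and 5.12-fold for FUL-AG. RLP28 (AT2G33080, chr2:14032258-14032601) had 4.79-fold for FUL, 4.82-fold for FUL-AG-SEP3, 4.24-fold for FUL-AG and 3.55-fold for FUL-SEP3. Their boxes lay in similar sequence.
RLP27: ttgtatctttCCTCTAATGGctttctaggt
RLP28: ttggatctttCCTTTAATAGcttcactggc
RLP23: atggagattgCCAAATTTGGaagggagtga

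RLP23 (AT2G32680, chr2:13861722-13862367) had 6.30-fold for FUL, 3.15-fold for FUL-AG-SEP3, 4.83-fold for FUL-AG and 3.92-fold for FUL-SEP3 and carried an exact box. The RLP12 interval (AT1G71400, chr1:26912394-26912874) was weak, with 2.55-fold for FUL, 3.05-fold for FUL-AG-SEP3 and 2.36-fold for FUL-AG. Its summit lay just past the annotated end of the gene, with part of the interval inside it. RLP27 and RLP12 had no FUL-SEP3 peak.

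Of the hormone genes, GA20OX3, a gibberellin biosynthesis gene (AT5G07200), had peaks in all 4 mixtures (3.95-fold for FUL, 3.39-fold for FUL-AG-SEP3, 3.51-fold for FUL-AG and 3.89-fold for FUL-SEP3). The summit lay 3420 bp downstream of the GA20OX3 start, past the annotated end of the gene. The Aux/IAA repressor gene IAA7 (AT3G23050) had 6.89-fold for FUL, 3.07-fold for FUL-AG-SEP3 and 4.58-fold for FUL-SEP3, 4202 bp upstream of its start. IAA5 (AT1G15580) and SAUR9 (AT4G36110) also held a FUL-SEP3 and no FUL-AG peak, with 4.48- and 2.70-fold, and ARF9 (AT4G23980) a FUL-AG peak of 3.32-fold and no FUL-SEP3 peak. None of the 5 genes had a FUL-SOC1 peak assigned, which was so for most of the 704 genes. SPL13A (AT5G50570) and SPL13B (AT5G50670), which encode regulators of the vegetative phase change, had intervals in their 5′ UTRs with 4.93- and 4.69-fold for FUL. Each gene also had a FUL-SOC1-shared interval, whose FUL-SOC1 summit was 1169 bp away in SPL13A and 1210 bp in SPL13B. HAM1, a GRAS gene of the shoot meristem, and GATA2 had FUL and FUL-AG-SEP3 peaks only. Those of GATA2 were weak, with 2.75-fold for FUL and 2.07-fold for FUL-AG-SEP3, at percentiles 7.04 and 1.47 of their lists. The genes of this paragraph were named after their values were seen.

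One of the DNA fragments that the study used as probes in gel shift assays lay in a FUL-SOC1-free interval. The probe named FAS Target 2 matched chr4:12393701-12393803 in the interval at chr4:12393542-12393908, whose summit was in a coding exon of WRKY53 (AT4G23810), a regulator of leaf senescence. The interval ranked 20 of 625, with 7.55-fold for FUL, 4.29-fold for FUL-AG-SEP3, 3.87-fold for FUL-AG and 3.68-fold for FUL-SEP3, and the nearest FUL-SOC1 peak was 33532 bp away. Its best box, printed below, had 1 mismatch.
WRKY53: tctcttccttCCATTTTTAGtatatgattc

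The probe FAS Target 1 lay in an interval that had peaks for the 3 AG or SEP3 mixtures but none for FUL alone, the SAUR10 and FS Target 1 probes lay in FUL-SOC1-shared intervals, and FS Target 2 lay in an interval with a FUL-SOC1 peak only. In the paper's gel shifts, a FAS fragment was bound more strongly by FUL-AG-SEP3. FUL-SOC1 and FUL-AG-SEP3 bound another with similar affinity. Which of these is the WRKY53 fragment was not established here. The missing FUL-SOC1 peak therefore does not show that FUL-SOC1 cannot bind it.

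The remaining intervals of the 10 highest-ranked were one in a coding exon of DGS1 (chr5:3974925-3975502, 9.27-fold for FUL and 4.89-fold for FUL-AG-SEP3), one 239 bp upstream of ET2 (AT5G56780, 8.45- and 4.93-fold) and one 389 bp upstream of AT5G54064 (10.1- and 4.72-fold). All 10 held FUL-AG and FUL-SEP3 peaks, and their nearest FUL-SOC1 peaks were between 4888 and 45724 bp away. Of the 10, 4 were copies of the largest repeat family and 2 belonged to smaller families. The 3 intervals at DGS1, ET2 and AT5G54064 had no near-identical copy, and their boxes were as follows.
DGS1: tcactccttaCCTTTTTAAGccaggtccga
ET2: tacacttttaCTTGATTTGGcaaatgttat
AT5G54064: ataaacctttCCAAAAATAGgcgtatgccg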

How the data were processed

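DAP-seq libraries of 5 FUL mixtures and input DNA were analysed from the deposited peak lists. The authors used Trim Galore for trimming, HISAT2 for alignment to TAIR10 and, once the 3 replicates of a mixture had been combined, MACS2 for narrow peaks (versions not given in the sources used here). The deposited lists give, per peak, a score, a fold ratio of enrichment over the local background, and −log10 p- and q-values. The lowest −log10 q lay between 1.30 and 1.44. The lists held 2572 (FUL), 4436 (FUL-AG-SEP3), 4809 (FUL-SOC1), 2814 (FUL-AG) and 1379 (FUL-SEP3) nuclear peaks. They carry no read counts, so the depth behind a peak is unknown. Mitochondrial peaks (11 to 23 per list) were left out.

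Chromosome lengths of TAIR10.1 (RefSeq) held all peaks, and its sequence and annotation of 37899 nuclear genes were used. Nuclear peaks overlapping by 1 bp were merged, and the highest peak of a list stood for it in an interval. CArG-boxes were sought in 200-bp windows at the FUL-AG-SEP3 summit (else FUL, FUL-SOC1, FUL-AG or FUL-SEP3), on a pattern that reads the same on both strands. Summits in several gene parts went to coding exon, 5′ UTR, 3′ UTR, intron and non-coding gene in that order. Copies came from megablast (BLAST 2.17.0). Shares have 95% Wilson intervals and differences 95% Newcombe intervals, computed in Python 3.11.15 with NumPy 2.4.6; no p-value was computed, since the lists are pooled. The steps were tested on simulated data.

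The intervals and gene lists were chosen with earlier results of these data known. The rule for named genes took the 10 intervals with the highest lower percentile in the FUL and FUL-AG-SEP3 lists, all intervals at genes of the flowering, carpel and fruit, receptor-like protein and MADS-box lists, and intervals at the study's gel shift probes. Of 4843 genes annotated as a transposable element gene or pseudogene, 91 (1.88%) were assigned to FUL-SOC1-free intervals, against 1.86% of all 37899 genes. Other rules for the intervals, other windows, box choices, annotations and copy limits were tried as alternatives.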

Additional observations from a re-analysis of the deposited data

How the results depend on the processing

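No paired analysis was possible because the 3 replicates of each mixture were combined before peaks were called, and no replicate could be left out for the same reason. The number of FUL-SOC1-free intervals stayed between 550 and 661 under 6 of 7 other rules (summits within 100 bp, no merging, 50% overlap, no FUL-SOC1 peak within 500 bp, and stricter q or p) and was 267 when each list was cut to its 1000 peaks of smallest p. Some of the 6 rules could change the number little. The stricter p kept 2567 of 2572 FUL and 4737 of 4809 FUL-SOC1 peaks, and the q and 500-bp rules could only remove some of the 625. The difference in FUL-SEP3 share lost its distance from 0 when intervals were split by FUL-AG-SEP3 fold (-5.57 points above and -5.66 points at or below the pooled median). The difference in boxes of at most 1 mismatch became -5.40 points (-9.11 to -1.85) in 400-bp windows. The upstream share excluded 0 at the FUL summit (4.57 points) and without copies (5.90 points), and the intron share did not at the FUL summit (-4.22 points, -8.31 to 0.0174). The cause was not tested. The differences in FUL-AG share, in FUL-SEP3 without FUL-AG and in A/T at all 6 flank positions kept their direction, with limits that excluded 0, under every alternative run for them. The flank difference ranged from 5.80 points without copies to 13.1 points above the pooled median fold. Single flank positions were less stable: -2, -1 and 12 lost their distance from 0 in 9 of the alternatives. The alternatives for FUL-SEP3 without FUL-AG and for the distance to gene starts were added after the data were seen. Without depths or replicate peaks, an interval just under a list's threshold cannot be told from one without binding.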
